A study of Mus musculus with 2 samples.

Results

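The Slc25 genes encode the mitochondrial carriers, and 44 of the 18193 genes that could be named on the array belong to them. They were chosen by name: every probe set annotated to exactly 1 gene symbol that starts with Slc25a was taken, 93 probe sets in all, and the uncoupling proteins, which carry Ucp symbols, were left out. RefSeq lists 47 Slc25a genes for the mouse, and the other 3 of these were not analysed here. The RNA came from skeletal muscle of Jhdm2a null mice on 1 Affymetrix 430 2 array and of wild-type mice on another, and each array carried RNA combined from 3 males of 3 months of age. The strain label of both groups names 129 embryonic stem cells and 4 generations of backcrossing onto C57BL/6. Jhdm2a, now named Kdm3a, encodes a histone demethylase that acts on lysine 9 of histone H3, and the series set muscle expression in its absence against that of wild-type muscle. The sources used here do not say which muscle was taken or which part of the gene was disrupted. Pooling hides the spread between mice, and with 1 array per genotype there was no replicate check and no test, so every difference below describes these 2 arrays, whose number limits the precision.

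Mitochondrial carriers are small proteins of the inner mitochondrial membrane that exchange metabolites between the matrix and the cytosol. They let ADP in and ATP out, bring in phosphate, pyrimidines and cofactors, pass the acids of the shuttles that move reducing equivalents, and hand on fatty acids as carnitine esters. In muscle the carriers for ADP/ATP and phosphate serve contraction, while in fat and liver the citrate carrier feeds fatty acid synthesis. A few relatives lie elsewhere, in the outer membrane or the peroxisome.

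The 2 arrays were closely matched in scale, with a median signal of 112 on each. Signals are MAS5 intensities on a linear scale, and a probe set was not used below a floor of 182, under which 60% of the signals lay. Probe sets of 1 gene differed in log2 ratio with a pooled SD of 0.29 over 3719 genes, and the log2 ratios of 18 spiked-in controls averaged -0.02 ± 0.09 (SD). The SD between probe sets is a spread within these 2 arrays and does not measure error between arrays or pools. The probe set for Kdm3a, the disrupted gene, read 488 in the pool labelled null and 406 in the pool labelled wild-type, so the null label was not matched by a lower Kdm3a signal. Whether that probe set falls inside the disrupted part is unknown here, and one outside it could not check a label. The pools are for this reason called null-labelled and wild-type-labelled, and a ratio is always the null-labelled signal over the wild-type-labelled one. Of 12 skeletal muscle markers, all 12 were above the floor on both arrays with log2 ratios from -0.09 to 0.25.

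The citrate carrier and the ADP/ATP carriers are shown by their promoters here, because they gave the lowest ratio of the family and a pair of paralogs with opposite signs in every probe set. The sequences are from RefSeq, build GRCm38.p6, and run from 250 bases before to 50 bases after the annotated start, on the strand of the gene. Capitals mark each CCAAT, or ATTGG where it lies on the other strand.
Slc25a1, chr16:17928170-17928469, minus strand: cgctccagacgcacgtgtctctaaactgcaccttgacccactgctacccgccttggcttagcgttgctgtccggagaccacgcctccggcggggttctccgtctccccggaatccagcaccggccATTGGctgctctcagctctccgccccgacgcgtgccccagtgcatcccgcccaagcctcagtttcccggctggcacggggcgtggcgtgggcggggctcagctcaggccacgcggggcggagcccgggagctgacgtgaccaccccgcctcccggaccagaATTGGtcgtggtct
Slc25a5, chrX:36795347-36795646, plus strand: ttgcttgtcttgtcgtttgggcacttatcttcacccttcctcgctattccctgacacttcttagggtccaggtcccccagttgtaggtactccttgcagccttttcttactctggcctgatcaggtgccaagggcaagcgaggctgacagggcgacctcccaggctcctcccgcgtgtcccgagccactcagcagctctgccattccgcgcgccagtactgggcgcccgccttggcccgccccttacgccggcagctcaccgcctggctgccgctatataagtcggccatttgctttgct
Slc25a4, chr8:46211013-46211312, minus strand: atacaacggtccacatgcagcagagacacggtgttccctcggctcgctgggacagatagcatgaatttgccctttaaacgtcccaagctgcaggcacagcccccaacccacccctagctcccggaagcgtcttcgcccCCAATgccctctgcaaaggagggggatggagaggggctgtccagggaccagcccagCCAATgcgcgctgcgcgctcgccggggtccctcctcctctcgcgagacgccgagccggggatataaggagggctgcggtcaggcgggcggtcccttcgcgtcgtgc
The windows of Slc25a1 and Slc25a4 each hold the motif at 2 places, and that of Slc25a5 has none of these letters. Of all 32851 promoter windows of this length, 37.4% hold CCAAT on either strand, against 21 of the 43 windows of 34 carrier genes found in the table (48.8%). For the carriers at least 1.5-fold lower on the null-labelled array, 7 of 12 windows from 9 genes held it. Windows of 1 gene can overlap and share a match, as those of Slc25a23 do. By gene, 6 of these 9 held it, beside 18 of the 34 carrier genes and 11096 of all 27025 genes. Searched on both strands, TCAAGGTCA was in 0 carrier windows and in 0.423% of all windows. TCACNCCAC was in 1 carrier window, that of Slc25a18, and in 1.24% of all windows. The matches in the printed windows do not overlap. These matches are letters in a window and not binding sites.

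Of the 44 carrier genes, 34 had at least 1 probe set past the floor in both pools. Among these, 12 were at least 1.5-fold lower in the null-labelled pool (35.3%), 0 were at least 1.5-fold higher, and 22 lay between. Over all 9696 genes measured in the same way, 6.27% were at least 1.5-fold lower and 3.35% at least 1.5-fold higher. At 2-fold, 5 carriers were lower (14.7%), against 2.36% of all genes. The median log2 ratio of the 34 carriers was -0.15, against 0.04 for all genes, and their mean was -0.39 ± 0.84 (SD over genes), because a few carriers were much lower while 14 lay above 0. Below 0 lay 58.8% of the carriers, against 44.3% of all genes. A carrier was counted only when all its probe sets above the floor had 1 sign. In bulk tissue, fewer cells of a type and less RNA per cell cannot be told apart.

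**Figure D1:**
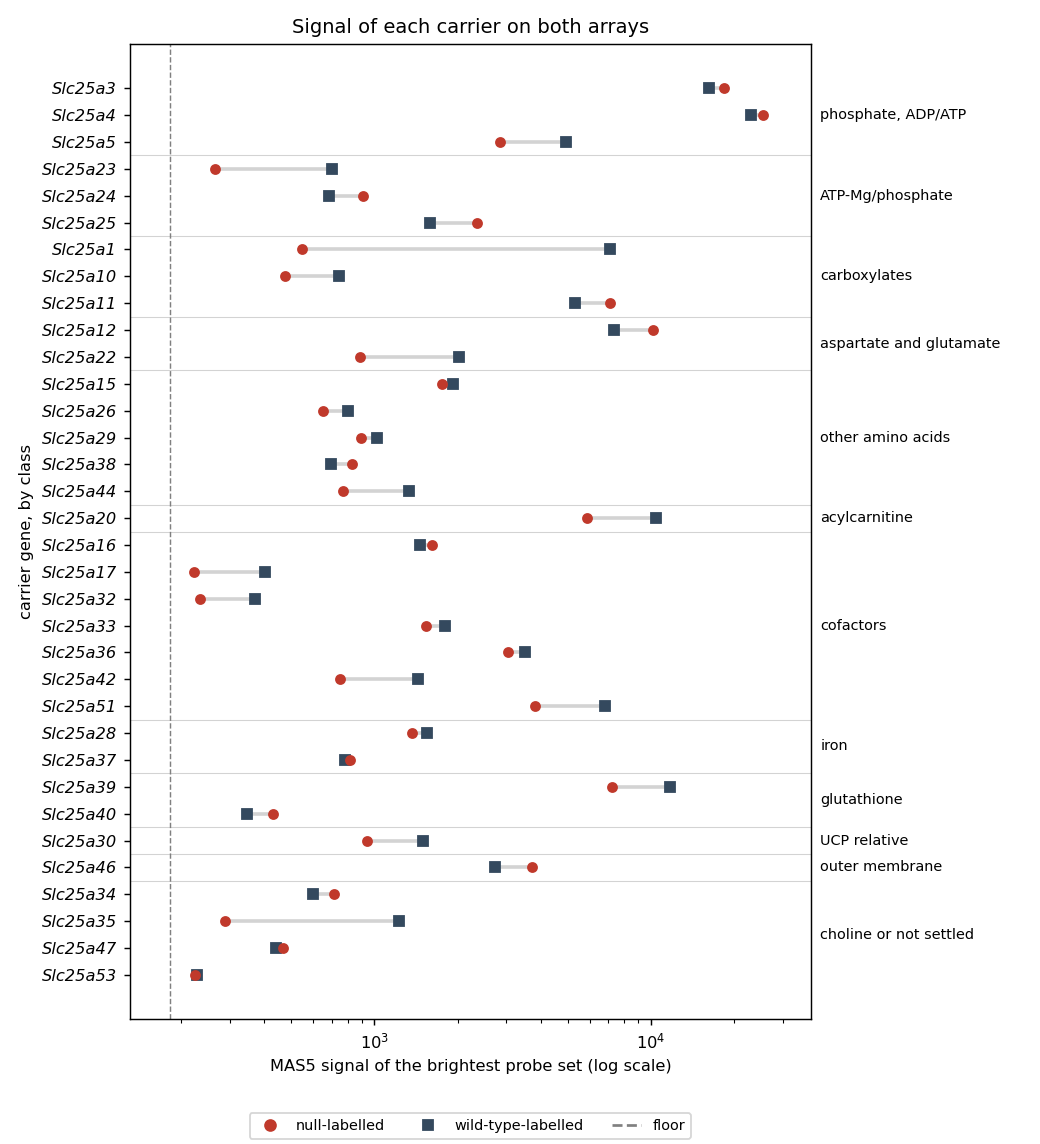
MAS5 signal (log scale) of the brightest probe set of each of the 34 carriers past the floor, in the null-labelled pool (circles) and the wild-type-labelled pool (squares), grouped by what the carrier moves. The dashed line is the floor at 182, and the longest gap is that of Slc25a1, at 545 in the null-labelled pool against 7091 in the wild-type-labelled pool. Signals of different probe sets are not comparable with each other.

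The lower carriers were spread over the family. Of 12 classes by substrate, 8 held a carrier at least 1.5-fold lower, and in 7 of those 8 another carrier of the same class lay above 0. The eighth, the acylcarnitine class, has 1 gene. The other 4 classes, the carriers for further amino acids, for iron, the relatives of the uncoupling proteins and the outer membrane member, held 0 carriers past 1.5-fold in either direction. In that order they had 5, 2, 1 and 1 measured carriers, so small classes had few chances to hold one.

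Among carriers of carboxylic acids, Slc25a1 stood far from the rest. Slc25a1, the citrate carrier that exports citrate from mitochondria, read 545 in the null-labelled pool against 7091 in the wild-type-labelled pool, 13.0-fold lower (log2 ratio -3.70, 1 probe set). Slc25a10, the dicarboxylate carrier that exchanges malate and succinate for phosphate, read 476 in the null-labelled pool against 747 in the wild-type-labelled pool, 1.57-fold lower. The signal of Slc25a10 comes from 1 of its 2 probe sets, and the other was under the floor on both arrays, at 154 in the null-labelled pool against 110 in the wild-type-labelled pool, and the mean of both was -0.08. Slc25a11, the oxoglutarate/malate carrier of the malate-aspartate shuttle, read 7137 in the null-labelled pool against 5301 in the wild-type-labelled pool. Its log2 ratio of 0.43 (1.35-fold) was the highest of the 34 carriers, and did not reach 1.5-fold.

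The ADP/ATP carriers had ratios of opposite sign. Slc25a4, the form that prevails in heart and skeletal muscle, read 25495, 20869, 19553 and 1210 in the null-labelled pool in its 4 probe sets, against 23088, 19277, 16320 and 818 in the wild-type-labelled pool. All 4 were higher on the null-labelled array, averaging 0.27 ± 0.21 in log2 ratio (SD of 4 probe sets). The log2 ratios ran from 0.11 to 0.57, the highest from the dimmest probe set. Slc25a5, the form found in many cell types, had 8 probe sets, with signals of 425 to 2847 in the null-labelled pool and of 735 to 4915 in the wild-type-labelled pool. All 8 were lower on the null-labelled array, with log2 ratios from -1.25 to -0.75 and a mean of -0.90 ± 0.20 (SD of 8 probe sets), 1.87-fold lower. The probe set ratios of Slc25a4 and Slc25a5 did not overlap. Of the 8 probe sets of Slc25a5, 6 are of a type (_x_at) that can bind related sequences, and RefSeq lists a pseudogene of Slc25a5. Without these 6 the log2 ratio was -0.77. The phosphate carrier Slc25a3, which supplies phosphate to ATP synthase, read 18348 in the null-labelled pool against 16288 in the wild-type-labelled pool, a log2 ratio of 0.17.

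**Figure D2:**
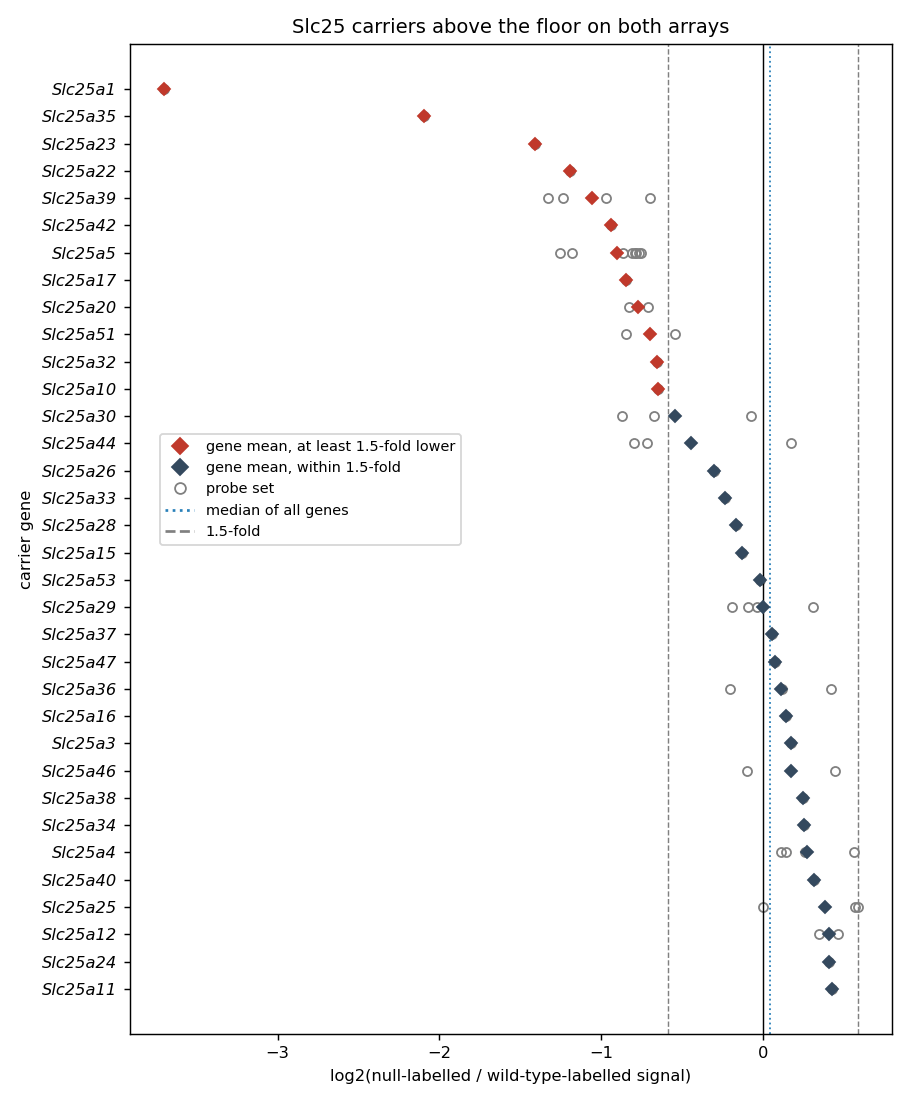
Log2 ratio of null-labelled over wild-type-labelled signal for the 34 carriers, from lowest to highest. Diamonds are gene means, open circles single probe sets above the floor, dashed lines 1.5-fold and the dotted line the median of all genes at 0.04. The 8 probe sets of Slc25a5 lie left of the 4 of Slc25a4, and Slc25a1 lies far left of the next carrier, Slc25a35.

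The carriers that exchange ATP-Mg for phosphate, which set the adenine nucleotide pool of the matrix and are switched on by calcium, divided as well. Slc25a23 read 265 in the null-labelled pool against 703 in the wild-type-labelled pool, 2.65-fold lower, and its null-labelled signal lay near the floor. Slc25a24 read 911 in the null-labelled pool against 687 in the wild-type-labelled pool, a log2 ratio of 0.41. Slc25a25 had 0.38 ± 0.33 (SD of 3 probe sets), and its brightest probe set read 2342 in the null-labelled pool against 1582 in the wild-type-labelled pool. Thus 1 member of this group was lower and the other 2 measured were above 0, within 1.5-fold.

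Of the aspartate and glutamate carriers, Slc25a12 and Slc25a22 were above the floor. Slc25a12, the aspartate/glutamate carrier of muscle and brain that completes the malate-aspartate shuttle, averaged 0.41 ± 0.09 in log2 ratio (SD of 2 probe sets), with 10177 and 1918 in the null-labelled pool against 7365 and 1510.2 in the wild-type-labelled pool. Slc25a22, which carries glutamate with a proton, read 887 in the null-labelled pool against 2026 in the wild-type-labelled pool, 2.28-fold lower. The liver form of the aspartate/glutamate carrier, Slc25a13, and the second glutamate carrier, Slc25a18, stayed under the floor on both arrays.

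The carnitine-acylcarnitine carrier Slc25a20, which brings long-chain acyl groups into the matrix for oxidation, was lower in both its probe sets. They read 5888 and 2937 in the null-labelled pool against 10467 and 4813 in the wild-type-labelled pool, a mean of -0.77 ± 0.08 in log2 ratio (SD of 2 probe sets), 1.71-fold lower. The enzymes on either side of it were measured too. Cpt2, which reforms acyl-CoA in the matrix, was 1.91-fold lower, while Crat, Slc22a5 and Cpt1a had log2 ratios of -0.22, -0.16 and -0.06.

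Carriers of cofactors and nucleotides held 4 of the 12 lower genes. Slc25a42, which brings coenzyme A into mitochondria in exchange for adenine nucleotides, read 751 in the null-labelled pool against 1437 in the wild-type-labelled pool, 1.91-fold lower. The other of its 2 probe sets was under the floor on both arrays, at 56.0 in the null-labelled pool against 36.1 in the wild-type-labelled pool, and the mean log2 ratio of both was -0.15. Slc25a51, the carrier of NAD+, was lower in both probe sets above the floor, with 3799 and 2389 in the null-labelled pool against 6844 and 3486 in the wild-type-labelled pool, and a mean of -0.70 ± 0.21 in log2 ratio (SD of 2 probe sets). Slc25a17, which lies in peroxisomes, read 223 in the null-labelled pool against 401 in the wild-type-labelled pool, 1.80-fold lower. Slc25a32, linked to folate and FAD transport, read 235 in the null-labelled pool against 369 in the wild-type-labelled pool, 1.58-fold lower. The null-labelled signals of Slc25a17 and Slc25a32 were close to the floor, and the 1 probe set of Slc25a32 above the floor, of 3, is of the _x_at type. Without a floor the mean log2 ratio of Slc25a32 was -0.25. The other 3 of this class were near even, with log2 ratios of 0.14 for Slc25a16, linked to coenzyme A, and of -0.24 and 0.11 for the pyrimidine nucleotide carriers Slc25a33 and Slc25a36. The 3 probe sets of Slc25a36 differed in sign, from -0.20 to 0.42.

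The glutathione carriers differed from each other. Slc25a39, which imports glutathione, was lower in all 4 probe sets above the floor, which read 7214, 4372, 1443 and 1015 in the null-labelled pool against 11718, 8559, 3617 and 2393 in the wild-type-labelled pool. The mean log2 ratio was -1.06 ± 0.28 (SD of 4 probe sets), 2.08-fold lower, though its brightest probe set alone gave -0.70. Its relative Slc25a40 read 431 in the null-labelled pool against 346 in the wild-type-labelled pool, a log2 ratio of 0.32. The mitoferrins, which bring in iron for heme and iron-sulfur clusters, were near even. Slc25a28 had -0.17 and Slc25a37, the form of developing red cells, had 0.05. Of the 3 erythroid markers measured, Slc4a1 and Alas2 were 3.03-fold and 1.63-fold higher in the null-labelled pool. Bpgm had a log2 ratio of 0.56. Slc4a1 rests on 1 of its 3 probe sets, of the _x_at type. Alas2 read 212 in the wild-type-labelled pool, near the floor. Hba-a1 and Epb42 were under the floor on both arrays.

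Carriers for other amino acids were within 1.5-fold, all 5 of the 5 measured. The lowest was Slc25a44, the carrier of branched-chain amino acids known from brown fat, at -0.45 ± 0.54 (SD of 3 probe sets). Its 2 brighter probe sets read 768 and 431 in the null-labelled pool against 1333 and 709 in the wild-type-labelled pool, while the dimmest read 336 in the null-labelled pool against 298 in the wild-type-labelled pool. From the brightest probe set alone the log2 ratio of Slc25a44 was -0.80, past 1.5-fold. Slc25a26, which imports S-adenosylmethionine, had -0.30, and the ornithine carrier Slc25a15 had -0.13. Slc25a38, a glycine carrier needed for heme synthesis, had 0.25, and Slc25a29, a carrier of basic amino acids, had -0.0021 from 4 probe sets of differing sign.

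Of the remaining carriers, Slc25a35 was far lower and the others lay within 1.5-fold. Slc25a35, whose substrate is not settled, read 287 in the null-labelled pool against 1228 in the wild-type-labelled pool, 4.28-fold lower (log2 ratio -2.10, 1 probe set). Its relative Slc25a34 read 716 in the null-labelled pool against 601 in the wild-type-labelled pool, a log2 ratio of 0.25. Slc25a30, a relative of the uncoupling proteins, was lower in its 3 probe sets above the floor with a mean of -0.54 ± 0.41 (SD of 3 probe sets), short of 1.5-fold, and its brightest gave -0.67, past it. Slc25a46, a protein of the outer membrane that takes part in mitochondrial dynamics, had 0.17 with probe sets of opposite sign. Slc25a47 and Slc25a53 had 0.08 and -0.02.

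**Figure D3:**
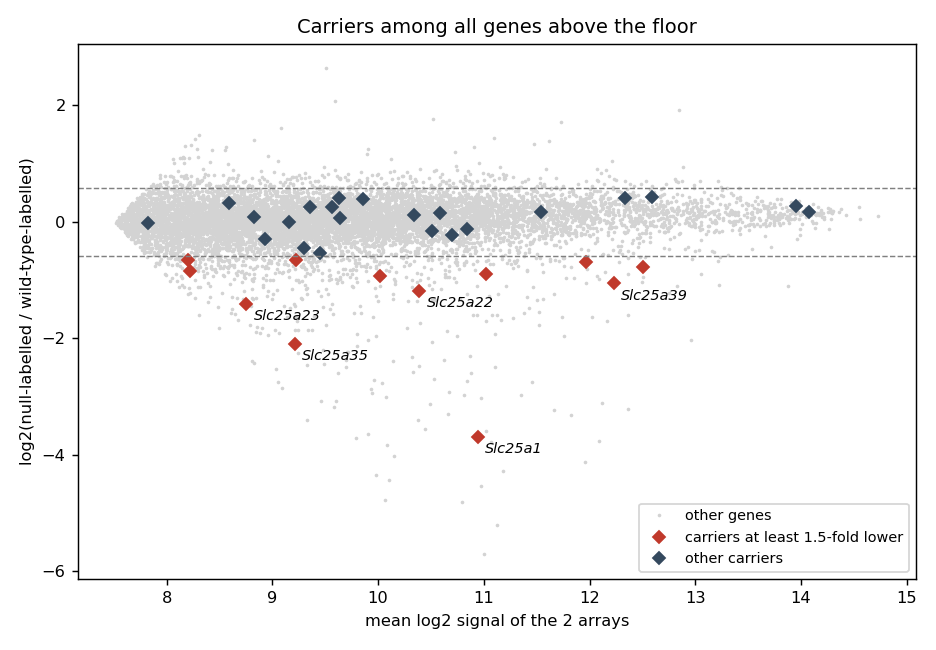
Log2 ratio of null-labelled over wild-type-labelled signal against mean log2 signal for all 9696 genes measured, using each gene's mean signal over its probe sets above the floor. The 12 carriers at least 1.5-fold lower (red diamonds) run from dim to bright signals, and the 5 past 2-fold are named. Dashed lines mark 1.5-fold.

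The 10 genes with no probe set past the floor in both pools were Slc25a2, Slc25a13, Slc25a14, Slc25a18, Slc25a27, Slc25a31, Slc25a41, Slc25a45, Slc25a48 and Slc25a54. Only Slc25a45 passed the floor on an array, at 167 in the null-labelled pool against 197 in the wild-type-labelled pool, too close to the floor for a bound. Among the 34 measured genes, 13 had 2 or more probe sets above the floor, and 4 of these, Slc25a29, Slc25a36, Slc25a44 and Slc25a46, had probe sets of differing sign. Of the 12 lower carriers, Slc25a5, Slc25a20, Slc25a39 and Slc25a51 rest on several probe sets and the other 8 on 1 each.

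Enzymes that work with these carriers were compared by list. Of 5 enzymes that use exported citrate or its products, 4 were at least 1.5-fold lower beside Slc25a1. Acly, which splits citrate, read 1492 in the null-labelled pool against 13629 in the wild-type-labelled pool in its brightest probe set, and averaged 9.40-fold lower over 3. Fasn, which builds fatty acids, and Acaca and Acacb, which make malonyl-CoA, were 13.6-fold, 8.19-fold and 2.07-fold lower. The malic enzyme Me1 had a log2 ratio of -0.41. In the malate-aspartate shuttle the transaminases Got1 and Got2 were 1.62-fold and 1.55-fold higher (SD of 0.47 between the 2 probe sets of Got2), and the malate dehydrogenases Mdh1 and Mdh2 had 0.13 and 0.16, beside Slc25a11 at 0.43 and Slc25a12 at 0.41. The brightest probe set of Got2 read 13829.5 in the null-labelled pool against 11237.4 in the wild-type-labelled pool, short of 1.5-fold. The enzymes of the glycerol phosphate shuttle, Gpd1 and Gpd2, were 1.71-fold and 3.26-fold lower, with SDs between 3 probe sets of 0.47 and 1.19. Their brightest probe sets read 5291 and 5591 in the null-labelled pool against 12039 and 8076 in the wild-type-labelled pool. That of Gpd2 was short of 1.5-fold.

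Other partners were closer to even. The pyruvate carrier subunit Mpc1 had a log2 ratio of 0.29, and the calcium uniporter genes Mcu, Micu2 and Smdt1 had -0.03, 0.43 and -0.01. Of 6 genes for iron-sulfur clusters and heme, Nfs1, a cysteine desulfurase, was 1.72-fold higher with an SD of 0.65 between 2 probe sets, and the other 5 were within 1.5-fold. The brighter probe set of Nfs1 read 4267 in the null-labelled pool against 3416 in the wild-type-labelled pool, short of 1.5-fold. Of 6 genes of branched-chain amino acid oxidation, Dbt, a core subunit of the oxidising complex, was 1.56-fold lower, and the list median was -0.28. Of the urea cycle and proline enzymes, 2 of 8 were above the floor on both arrays, Oat at 0.53 and Aldh18a1 at -0.20, beside the ornithine carrier Slc25a15 at -0.13.

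Many markers of fat and liver were lower in the same pool as the lower carriers. Of 8 brown adipocyte markers, 6 were above the floor on both arrays, and 2 of these, Ucp1 and Cidea, were at least 1.5-fold lower. The log2 ratios of the other 4 were -0.43 for Prdm16, -0.34 for Dio2, -0.34 for Zic1 and -0.13 for Cox8b. The value of Dio2 comes from 1 of its 3 probe sets. Its brightest probe set was left out, at 177 in the null-labelled pool, under the floor, against 958 in the wild-type-labelled pool. The brightest probe sets of all 8 summed to 20493 in the null-labelled pool against 55651 in the wild-type-labelled pool. Cox8b alone gave 18805 of the null-labelled sum and 20562 of the wild-type-labelled sum. Ucp1 read 283 in the null-labelled pool against 14885 in the wild-type-labelled pool. Cidea read 367 in the null-labelled pool against 13567 in the wild-type-labelled pool, while Cox8b, which muscle also expresses, read 18805 in the null-labelled pool against 20562 in the wild-type-labelled pool. Elovl3 and Otop1 were under the floor in the null-labelled pool, at 114 and 86.6, and read 2092 and 2689 in the wild-type-labelled pool.

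The fat and liver lists ran the same way. All 5 of the measured adipocyte markers were at least 1.5-fold lower. The 7 with a probe set summed to 13771 in the null-labelled pool against 48906 in the wild-type-labelled pool. Fabp4 alone, 2.16-fold lower, gave 11296 and 25614.5 of these sums. Signals of different probe sets are not comparable, so such sums mainly follow the brightest genes. Adipoq read 1145 in the null-labelled pool against 11443 in the wild-type-labelled pool. Of 9 hepatocyte markers with a probe set, 7 were above the floor on either array, and their 3 measured on both were lower. The 9 summed to 3156 in the null-labelled pool against 19003 in the wild-type-labelled pool. Cyp2e1 alone, 2.55-fold lower, gave 1824 and 4643 of these sums. Alb read 361 in the null-labelled pool against 2635 in the wild-type-labelled pool. No marker of the fat and liver lists was listed at 0, and Lep, Pparg, Apoa1 and Ttr were under the floor in the null-labelled pool. The part of fat and liver RNA in the lower carrier values was not tested. The skeletal muscle list had a median log2 ratio of 0.15, beside the muscle ADP/ATP carrier Slc25a4 at 0.27, Slc25a3 at 0.17 and Slc25a12 at 0.41. Of 8 neutrophil markers only Ngp was above the floor on both arrays, at 1808 in the null-labelled pool against 292 in the wild-type-labelled pool, and the other 7 passed it in the null-labelled pool alone.

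**Figure D4:**
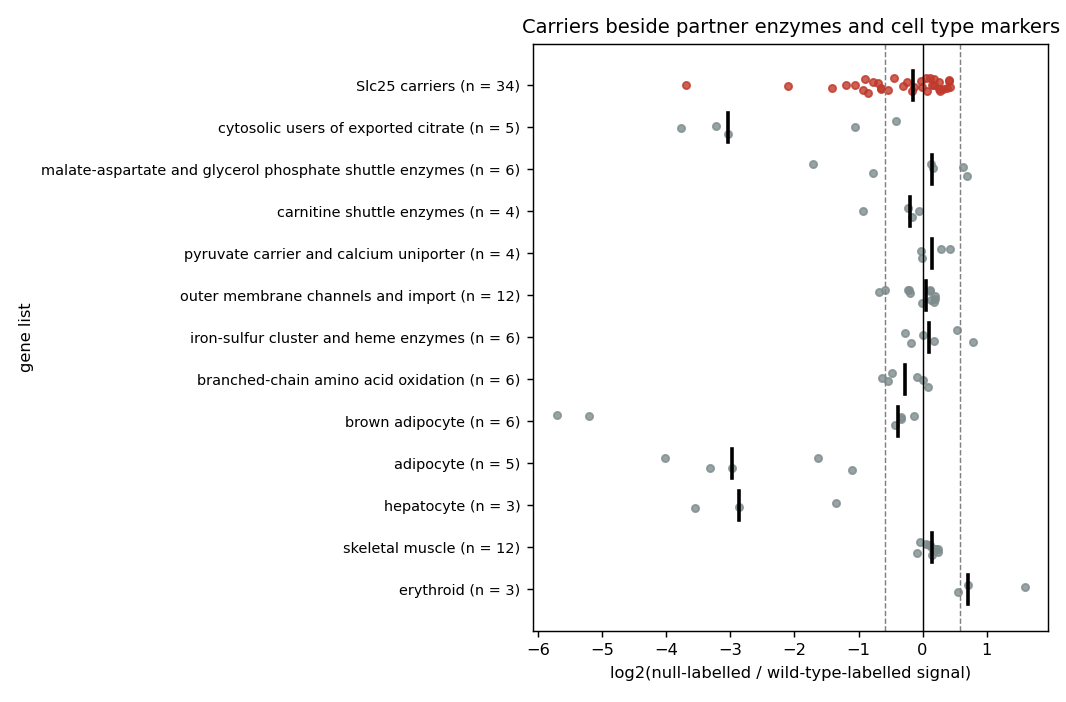
Log2 ratio of null-labelled over wild-type-labelled signal for the 34 carriers and for the partner enzymes and cell type markers above the floor on both arrays, 1 point per gene, with the list median as a bar (vertical jitter has no meaning). The urea cycle and proline list and the neutrophil list are not drawn. The carriers spread from -3.70 to 0.43, while every adipocyte gene lies left of the lower dashed line and the skeletal muscle genes between -0.09 and 0.25. Dashed lines mark 1.5-fold.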

How the data were processed

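Total RNA of skeletal muscle was hybridised to 2 arrays, 1 per genotype, each with RNA of 3 mice combined before labelling. The deposited table holds linear MAS5 signal intensity, 1 value per probe set. The submitters' processing notes name MAS5 with no version. The 2% trimmed mean was 500 on both arrays in the deposited table, so no further scaling was applied. No detection calls were used here, and a floor at the 60th percentile of the 45037 non-control probe sets took their place. Groups came from the source label of each sample.

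Genes were named from the platform annotation. 34945 probe sets had 1 symbol, 932 had several and 9160 had none, and only the first were used. All 44 carrier genes matched a RefSeq identifier on GRCm38.p6, and 0 symbols differed. Each gene took the mean of the log2 ratios, null-labelled over wild-type-labelled, of its probe sets above the floor on both arrays. A gene was counted at 1.5-fold when all of these had 1 sign. No test between genotypes was run, since 1 array per genotype leaves no residual degrees of freedom.

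Every carrier gene was named. Signals were given in the text for those past 1.5-fold and for some others, and log2 ratios alone for the rest of the measured carriers. Up to 4 partner genes past 1.5-fold were named per list. Other genes named from the partner and marker lists were chosen after their values were seen. The members, classes, 8 partner lists, 6 marker lists and promoter motifs were chosen with earlier results of these data known. The calculation of gene values was checked on simulated signals with known ratios. Python 3.11.15, numpy 2.4.6, pandas 2.3.3 and statsmodels 0.14.6 were used.

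Alternatives were quantile normalization, centring of the median log2 ratio at 0, loess on mean log2 signal (span 0.4), floors at the 50th and 75th percentile and no floor, log2 of signal plus 32, the brightest probe set of each gene, and probe sets other than _s_at and _x_at.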

Additional observations from a re-analysis of the deposited data

How the results depend on the processing

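Across the 9 alternatives the median log2 ratio of the carriers stayed between -0.21 and -0.12 and the count at least 1.5-fold lower between 10 and 14. The share of carriers at least 1.5-fold lower ran from 27.3% without a floor to 41.2% with the brightest probe set. The shares of all genes under those settings were 14.3% and 6.96%. The count at least 1.5-fold higher was 0, except without a floor, where it was 4 (Slc25a2, Slc25a13, Slc25a18 and Slc25a24), each resting on at least 1 probe set under the floor. These were 4 of 44 carriers, in a setting where 10.9% of all genes were at least 1.5-fold higher. All 12 lower carriers remained so in 6 of the 9. With the floor at the 75th percentile 8 remained, as Slc25a17, Slc25a23, Slc25a32 and Slc25a35 went unmeasured. Without a floor 9 remained, and Slc25a10, Slc25a32 and Slc25a42 had log2 ratios of -0.08, -0.25 and -0.15, with dim probe sets averaged in, while Slc25a15 (-0.70), Slc25a30 and Slc25a31 joined them. Without _s_at and _x_at probe sets 11 remained, since Slc25a32 had no other probe set above the floor. Slc25a30 and Slc25a44 joined the lower carriers with the brightest probe set alone and with the floor at the 75th percentile. Of 297 single gene values under alternatives, 287 moved by less than the SD of 0.29 between probe sets, and Slc25a29 and Slc25a36 changed sign in some. Some of the 287 could not move, such as genes with 1 probe set above the floor when only the brightest was taken. No paired analysis was possible because each genotype has 1 array. For the same reason no replicate could be left out. Signal over background limits the 10 carriers without a value, and Slc25a17, Slc25a23, Slc25a32 and Slc25a35, which had a value only with the lower floors or none.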

Other observations

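Relatives of the carriers in the outer membrane and the import machinery that inserts carriers gave values close to even, apart from the Mtch genes. Of 12 genes for channels and import, 1 was at least 1.5-fold lower and 0 higher, with a median log2 ratio of 0.06. The one was Mtch1, a carrier homolog of the outer membrane, at 1434 in the null-labelled pool against 2301 in the wild-type-labelled pool, 1.60-fold lower. Its paralog Mtch2, which inserts proteins into the outer membrane, had -0.58 ± 0.74 (SD of 3 probe sets), and its brightest probe set read 3720 in the null-labelled pool against 9999.8 in the wild-type-labelled pool. The outer membrane channels Vdac1, Vdac2 and Vdac3 had 0.12, 0.14 and 0.18. Timm22, Timm9 and Timm10, which guide carriers into the inner membrane, had 0.20, -0.0037 and -0.20.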
